A study of Mus musculus with 12 samples.

Results

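Ligated segment 1 was compared with control segment 3 of the mouse epididymis in 4 of the 12 RNA-seq libraries of the series, 2 on each side, chosen by the group named in the column of each count table. The comparison asks at which genes segment 1 without flow from the testis was at the level of normal segment 3, and at which it was not. All mice were wild type (WT). In the ligated group the efferent ducts, which carry fluid and sperm out of the testis, had been closed with a suture where they reach the caput, the head of the epididymis, and the control tissue was not ligated. RNA of 2 mice was pooled for each library, 500 ng of it entered a directional kit, and polyadenylated RNA was selected first. The series holds segments 1, 2 and 3 of both conditions, with 1 library of each group in each of the sequencing batches 3017 and 3097. The time after ligation, the age of the mice, and whether segments or conditions of a batch came from the same mice are not stated in the sources. Ligated segment 1 and control segment 3 differ in both segment and ligation, and the part of each in a difference cannot be told apart. The spread behind every p-value is that of 2-mouse pools and not of single mice.

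Sperm leave the testis immature and gain function while they pass along the epididymal duct, whose epithelium secretes a different set of proteins in each segment. The initial segment, segment 1, depends on factors that arrive in the lumen from the testis, which act through growth factor receptors and the kinases ERK1 and ERK2 on transcription factors such as Etv4 and Etv5. Segment 3 belongs to the caput, whose principal cells secrete proteins such as Gpx5, Adam7, clusterin and lipocalins. The duct also holds basal and clear cells, is wrapped in smooth muscle and vessels, and is served by many macrophages. It carries sperm that bring transcripts of their own.

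The 2 ligated segment 1 libraries held 40.3 and 33.0 M counts and the 2 control segment 3 libraries 35.2 and 39.3 M, in batches 3017 and 3097. Here and below, paired values are given in that order of batches. Levels are CPM, counts scaled to library size, with TMM factors and no correction for gene length, so they compare libraries and not genes. Libraries of a group differed by more than counting noise, where chi-square divided by its degrees of freedom was 22.6 between the ligated and 80.1 between the control libraries. A gene was called when edgeR's quasi-likelihood test, with batch in the model and all 12 libraries in the fit, gave a Benjamini-Hochberg adjusted p under 0.05. Adjusted p-values below come from that test, and log2 fold changes, with their standard errors (SE), are ligated segment 1 minus control segment 3. Calls that were lost when 1 library was left out are given with the values without each library, in the order ligated 3017, ligated 3097, control 3017, control 3097 (the left-out order). Leaving 1 out leaves its group with 1 library, which is then assumed to vary like the other groups.

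Ligated segment 1 lay within 2-fold of control segment 3 at most genes. The test covered 19213 genes and called 1806 (9.4%), with 886 higher (4.61%) and 920 lower (4.79%) in ligated segment 1, and for 1805 the 2 batches differed in 1 direction. With libraries scaled by their totals alone, 72.3% of the calls were higher ones, against 49.1%. At least a 2-fold difference was found for 990 genes (5.15%), 500 higher and 490 lower. The 95% interval of the fold change (limma voom) lay wholly within 2-fold for 11531 genes, or 60.0%, 590 of them called. Of the 17407 genes not called, 10941 had such an interval and 6466 had a wider one, so for the latter the data did not bound the difference to 2-fold. Of the 9445 genes at 10 CPM or more on average over both groups, 92.4% lay within 2-fold and 8.43% were called. The count of calls was 652, 335, 394 and 716 in the left-out order.

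**Figure D1:**
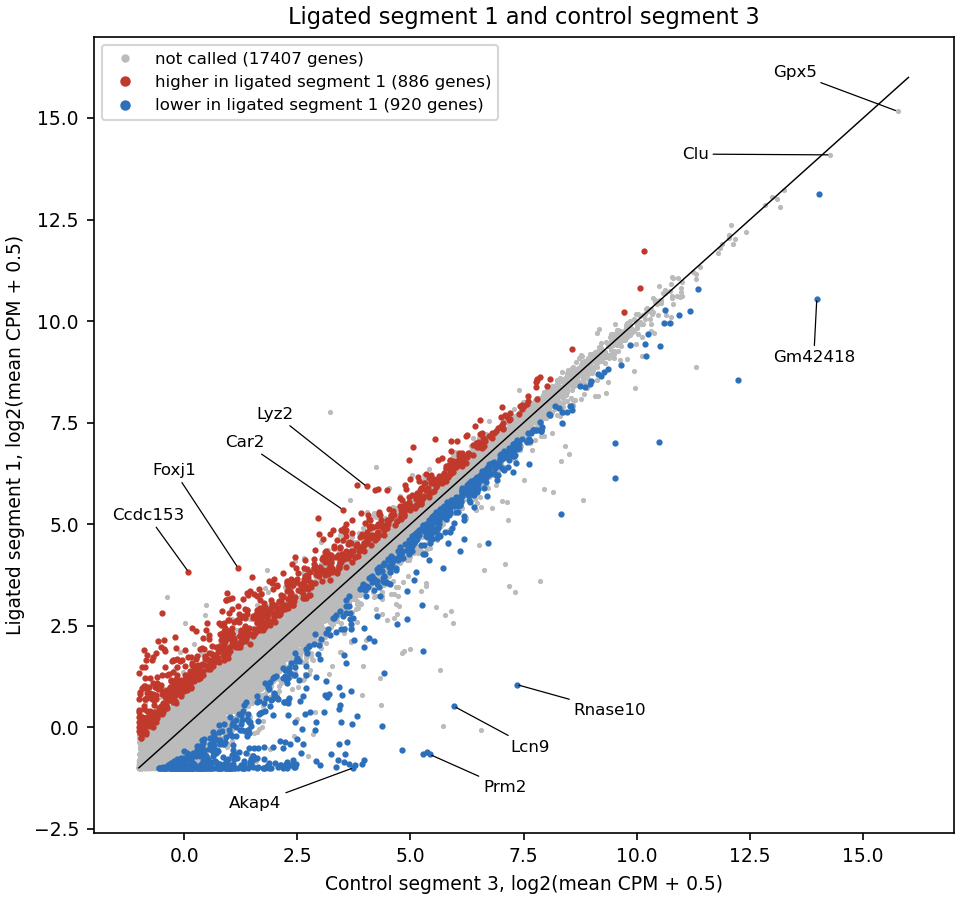
Mean level of each of 19213 genes in control segment 3 (x axis) and ligated segment 1 (y axis), both as log2 of the mean CPM of 2 libraries plus 0.5; red points are the 886 genes called higher and blue points the 920 called lower in ligated segment 1, and the line marks equal levels. Most genes lie along the line, and the blue points that lie farthest from it include the sperm genes Akap4 and Prm2 and the segment 1 genes Rnase10 and Lcn9.

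The same segment of unligated mice was much farther away. Ligated segment 1 differed from control segment 1 at 9363 genes (48.7%), from control segment 2 at 2541 (13.2%), from ligated segment 3 at 1115 (5.8%) and from ligated segment 2 at 249 (1.3%). The median absolute log2 difference over all genes between ligated segment 1 and control segment 3 was 0.278 in batch 3017 and 0.261 in batch 3097. Against control segment 1 it was 0.559 and 0.515, against control segment 2 0.352 and 0.279, against ligated segment 3 0.258 and 0.234, and against ligated segment 2 0.188 and 0.215. Between the batches of 1 group it was 0.203 for ligated segment 1 and 0.237 for control segment 3. Of the 3 control segments, control segment 3 was thus the nearest to ligated segment 1 in both batches. The comparisons share the ligated segment 1 libraries, and the difference between these counts was not tested.

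**Figure D2:**
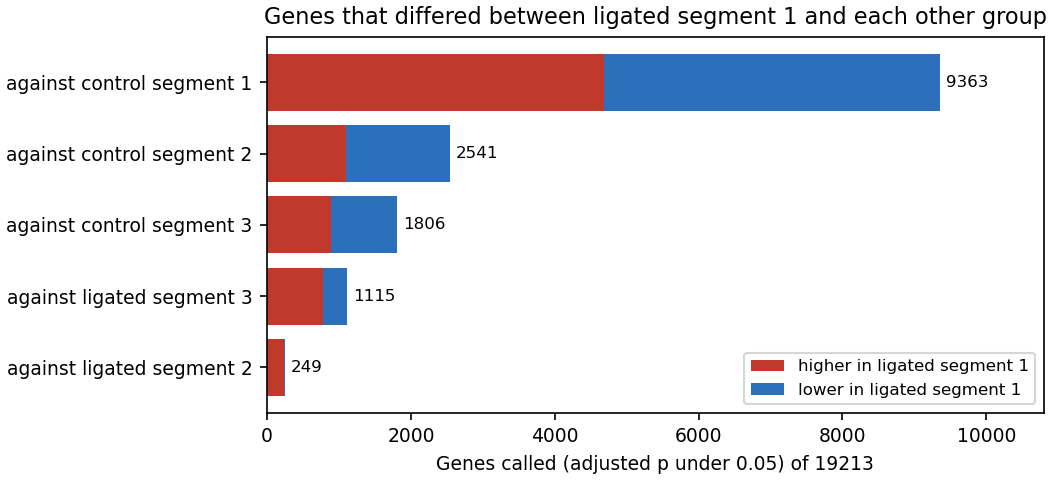
Number of genes called (x axis, adjusted p under 0.05, of 19213 tested) between ligated segment 1 and each other group (y axis), split into genes higher (red) and lower (blue) in ligated segment 1. The count falls from 9363 against control segment 1 to 1806 against control segment 3 and 249 against ligated segment 2.

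The most heavily counted secretory genes of the caput were close in both groups, and the exceptions were lower in ligated segment 1. Of the 10 genes with the most CPM in either group, 9 were the same. Gpx5, which encodes a secreted glutathione peroxidase, was at 39300 and 34100 CPM in ligated segment 1 and 53500 and 57400 CPM in control segment 3 (log2 fold change -0.58 ± 0.18 SE, adjusted p = 0.075). The groups did not overlap, but the difference missed the threshold. Clu, which encodes clusterin, a secreted chaperone, was at 18700 and 16200 CPM against 16800 and 22600 CPM (-0.13 ± 0.55, adjusted p = 0.91, interval -1.73 to 1.41). The Clu values overlapped, while control segment 1 was far below both, at a mean of 508 CPM. Adam7, which encodes a membrane protein of the ADAM family that is passed to sperm, was at 8700 and 9300 CPM against 17200 and 16000 CPM (-0.89 ± 0.18, adjusted p = 0.016). Both ligated libraries were lower, and the adjusted p was 0.091, 0.10, 0.12 and 0.054 in the left-out order.

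Slc38a5, an amino acid transporter, was at 7710 and 6660 CPM in ligated segment 1 against 8960 and 9470 CPM in control segment 3 (adjusted p = 0.41), and at a mean of 884 CPM in control segment 1. Glul, glutamine synthetase, was at 7680 and 7270 CPM against 7220 and 7300 CPM (adjusted p = 0.95), and at 1020 CPM in control segment 1. Lypd8, a GPI-anchored protein of the Ly6 family, was at 10900 and 8350 CPM against 10400 and 9040 CPM (log2 fold change 0.00), and at 97.3 CPM in control segment 1. The groups overlapped for Glul and Lypd8, while both ligated libraries were below both controls for Slc38a5, by a difference that missed the threshold. The interval for Lypd8, -4.25 to 4.17, was wide, so its likeness rests on these 4 values. The 10 leading genes together took 12.7% and 11.9% of counts in ligated segment 1 and 16.1% and 15.0% in control segment 3.

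The gene that left the top 10 was Gm42418, a gene model on chromosome 17 that overlaps a copy of ribosomal RNA. It was at 1280 and 1710 CPM in ligated segment 1 and 24700 and 7530 CPM in control segment 3 (-3.35 ± 0.53, adjusted p = 0.013), with adjusted p of 0.096, 0.079, 0.0071 and 0.00037 in the left-out order. Its neighbour Gm23935 was at 387 and 364 CPM against 8000 and 1570 CPM (adjusted p = 0.021), with 0.14, 0.11, 0.0099 and 0.00052 in the left-out order. Both were high in both control segment 3 libraries, and highest in that of batch 3017. Their part in the other results was not tested.

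Genes that mark normal segment 1 lay, at the median, much closer to control segment 3 in ligated than in control segment 1, and more of those called were above control segment 3 than below it. These genes were taken as the 681 (3.54% of those tested) that were at least 4-fold higher in control segment 1 than in control segment 2. Those libraries do not enter the comparison of ligated segment 1 with control segment 3. Their median log2 difference from control segment 3 was 3.9 in control segment 1 and 0.33 in ligated segment 1. These values share the control segment 3 libraries. The class was chosen for being high in control segment 1, so the wide difference there was partly set by that choice. Over all genes tested the fitted median in ligated segment 1 was -0.016. Within batches, with 0.5 CPM added to each level, the class median was 0.058 and 0.15, against -0.0026 and -0.026 over all genes tested. The fitted class median was 0.25 when genes with 0 counts in 1 group were set to the bound that 3 counts per library allow. The median level was 4.7 CPM in control segment 1, 0.529 CPM in ligated segment 1 and 0.321 CPM in control segment 3. Of the 681 genes, 107 (15.7%) were called against control segment 3, 94 higher and 13 lower, where 9.4% of all genes were. Of the higher calls 65 were of at least 4-fold. An interval within 2-fold was found for 61 (8.96%), against 60.0% of all genes, so for most of this class the data did not bound the difference. The higher calls numbered 54, 20, 18 and 42 and the lower calls 3, 2, 9 and 5 in the left-out order.

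Genes that mark segments 2 and 3 were compared in the same way. Of the genes tested, 1293 (6.73%) were at least 4-fold lower in control segment 1 than in control segment 2. Their median difference from control segment 3 was -3.2 in control segment 1 and -0.72 in ligated segment 1. Within batches, with 0.5 CPM added to each level, the ligated median was -0.47 and -0.46 for these genes. Of these, 357 (27.6%) were called, 6 higher and 351 lower, and the lower calls numbered 131, 130, 126 and 197 in the left-out order. The class holds Tssk3 of the sperm list below, but the share of its transcripts that sperm carry was not tested. Setting aside its genes that were at least 4-fold lower in ligated than in control segment 2, a step added after seeing the results, left 974 genes, of which 77 (7.91%) were called, 71 lower and 6 higher, with a median of -0.45. The lower calls then numbered 22, 3, 9 and 27 in the left-out order. By their medians both classes lay closer to control segment 3 in ligated than in control segment 1. Both were chosen for being far from control segment 2 in control segment 1, so a part of this was set by the choice.

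**Figure D3:**
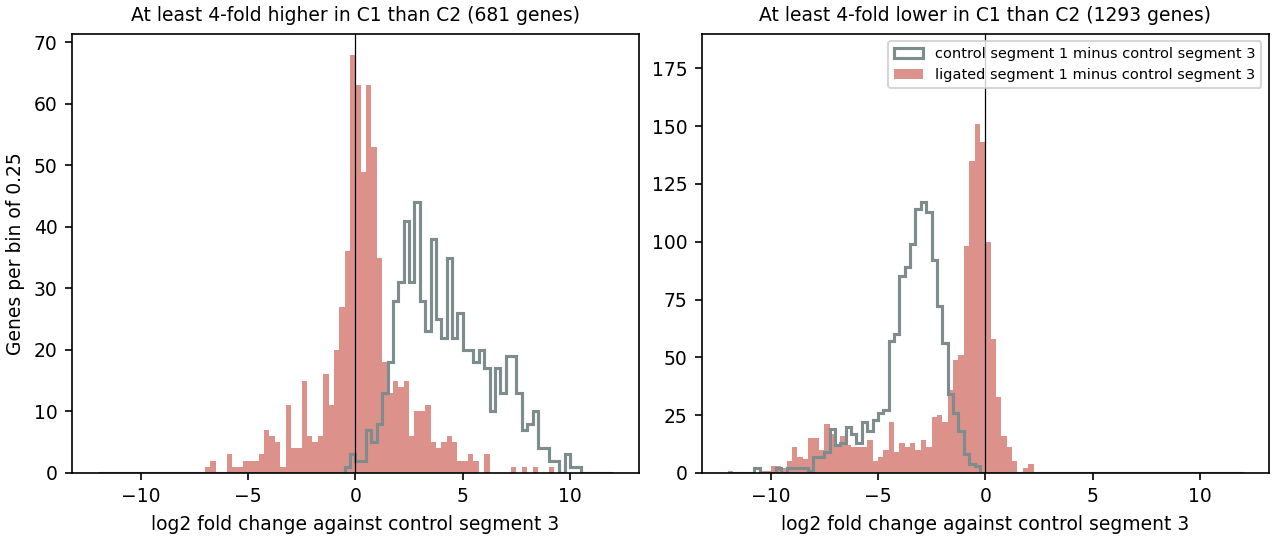
Log2 fold change against control segment 3 (x axis) of genes at least 4-fold higher (left, 681 genes) or lower (right, 1293 genes) in control segment 1 (C1) than in control segment 2 (C2), as the number of genes per bin of 0.25 (y axis), for control segment 1 (grey outline) and ligated segment 1 (red). Control segment 1 centres at 3.9 and -3.2, ligated segment 1 at 0.33 and -0.72, and the right panel has a red tail toward lower values.

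The best known genes of the initial segment were not called above control segment 3, but few were bounded to within 2-fold. Cst12 had the highest estimate. Of 24 listed, 0 were higher and 2 were lower, with a median log2 fold change of -0.78 against -0.016 over all genes. An interval within 2-fold was found for 4 of the 24. Over all genes, 60.0% had one and 9.4% were called. Leaving out libraries left 0, 0, 0 and 1 lower calls in the left-out order, 11 of the 24 had an unadjusted p under 0.05 (25.6% of all genes did), and DESeq2 called 2 higher and 9 lower (10.5% of all genes were called). Their summed level was 4180 and 4010 CPM in ligated segment 1, 5300 and 4910 CPM in control segment 3, and 56400 and 60100 CPM in control segment 1. Against control segment 1, 16 of the 24 were lower in ligated segment 1 and 4 were higher. Not all of the list marked normal segment 1, since 17 were higher and 4 lower there than in control segment 3. Much of the sum in ligated segment 1 came from Defb20, at a mean of 2180 CPM, against 3790 CPM in control segment 1.

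Rnase10 (chr14:51007751-51010758), a secreted protein of the RNase A family, was at 1.66 and 1.48 CPM in ligated segment 1 and 259 and 66.5 CPM in control segment 3 (-6.53 ± 0.94, adjusted p = 0.014). Both ligated libraries were far below both controls, 92.4-fold by the fitted value, and the adjusted p was 0.11, 0.12, 0.056 and 0.027 in the left-out order. Lcn9 (chr2:25823153-25825537), a lipocalin, was at 0.956 and 0.895 CPM against 67.7 and 56.4 CPM (-6.09 ± 1.12, adjusted p = 0.03). Its groups did not overlap either, with 0.18, 0.17, 0.11 and 0.10 in the left-out order. Defb48, a beta-defensin, was at 0.443 and 0.588 CPM against 13.8 and 26.9 CPM (-5.34 ± 0.79, adjusted p = 0.015), with 0.11, 0.12, 0.029 and 0.043 in the left-out order. In control segment 1 these genes stood at means of 9170, 8580 and 4300 CPM, so control segment 3 held a small part of those levels and ligated segment 1 a smaller one.

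Other genes of the initial segment did not pass the test, in either direction. Lcn8, a lipocalin, was at 15.5 and 12.9 CPM against 94.6 and 102 CPM (-2.83 ± 1.07, adjusted p = 0.17, interval -5.84 to 0.08). Cst8, a cystatin-related protein, was at 2.68 and 3.47 CPM against 29 and 26.2 CPM (-3.15 ± 1.02, adjusted p = 0.12, interval -7.04 to 0.53). Ovch2, an ovochymase, was at 34.9 and 35.5 CPM against 84 and 63.7 CPM (-1.04 ± 0.33, adjusted p = 0.10). In each of these 3 genes both ligated libraries were below both control libraries. Cst12, another cystatin-related protein, was the opposite, at 172 and 257 CPM against 6.44 and 11.1 CPM (4.62 ± 1.35, adjusted p = 0.10, interval 1.35 to 7.69). Both of its ligated libraries were far above both controls, and its mean was 1400 CPM in control segment 1 and 7.56 CPM in ligated segment 2. Cst12 was picked out after its values were seen. Adam28 also had higher values in the ligated libraries, at 62.3 and 84.2 CPM against 24.6 and 39.5 CPM (1.19 ± 1.08, adjusted p = 0.56, interval -1.43 to 3.83), and stood at 7840 CPM in control segment 1. Ros1, the receptor tyrosine kinase needed for the initial segment to form, was at 149 and 180 CPM against 227 and 252 CPM (-0.54 ± 0.24, adjusted p = 0.20).

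**Figure D4:**
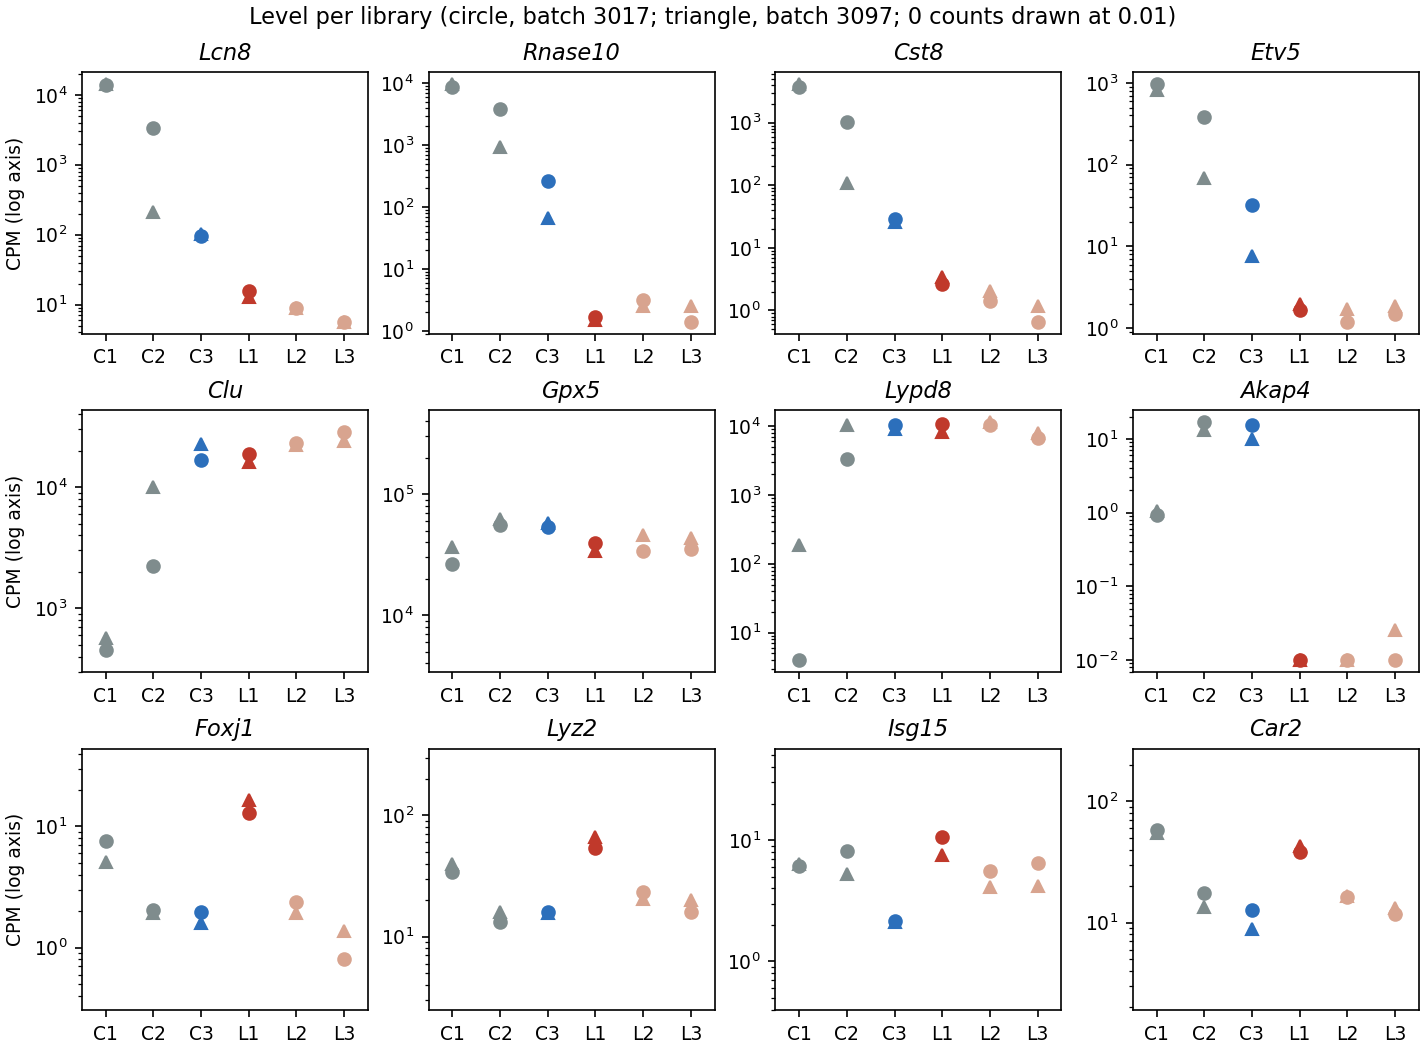
CPM per library (y axis, log scale) of 12 genes in control segments 1 to 3 (C1, C2, C3) and ligated segments 1 to 3 (L1, L2, L3); circles are batch 3017, triangles batch 3097, and a level of 0 is drawn at 0.01. Clu and Lypd8 in ligated segment 1 sit with control segment 3, Rnase10, Lcn8, Cst8, Etv5 and Akap4 sit below it, and Foxj1, Lyz2, Isg15 and Car2 sit above it.

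Several genes that respond to ERK and are high in normal segment 1 had low values in both ligated segment 1 and control segment 3. Etv5, a transcription factor at the end of the pathway, was at 1.66 and 1.96 CPM in ligated segment 1 and 31.9 and 7.53 CPM in control segment 3 (-3.24 ± 0.94, adjusted p = 0.098). Etv4, its close relative, was at 0.303 and 0.112 CPM against 1.25 and 1.61 CPM (adjusted p = 0.15). The ligated libraries were below the controls for both genes, and neither difference passed the test. Dusp6, a phosphatase that switches ERK off and is induced by it, was at 5.06 and 5.76 CPM against 14.1 and 6.87 CPM (adjusted p = 0.30), and at 300 CPM in control segment 1. Of 19 genes listed as ERK targets and feedback regulators that were tested, 9 had an unadjusted p under 0.05 (25.6% of all genes did). DESeq2 called 0 higher and 5 lower (10.5% of all genes were called). By edgeR's test 0 were called higher and 1 lower (9.4% of all genes were called), with a median of -0.45. The 1, which was not high in control segment 1 (mean 2.54 CPM), was Il17rd, an inhibitor of fibroblast growth factor signalling, at 4.29 and 5.34 CPM against 12.1 and 8.97 CPM (-1.17 ± 0.30, adjusted p = 0.04), with 0.19, 0.21, 0.30 and 0.027 in the left-out order.

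Among growth factors and their receptors, 4 of 23 tested were called higher and 2 lower (median 0.10), with 3, 1, 3 and 1 higher and 1, 1, 1 and 3 lower in the left-out order. Over all genes, 9.4% were called. Tgfa, a ligand of the epidermal growth factor receptor, was at 36.0 and 37.2 CPM in ligated segment 1 against 17.9 and 21.2 CPM in control segment 3 (0.91 ± 0.12, adjusted p = 0.0034). Vegfa (chr17:46016993-46032369), the vascular endothelial growth factor, was at 26.8 and 12.9 CPM against 77.8 and 58.8 CPM (-1.82 ± 0.20, adjusted p = 0.0028). Neither gene overlapped between the groups, and both were called with each of the 4 libraries left out. Igf1, an insulin-like growth factor, was at 6.04 and 9.74 CPM against 3.15 and 2.68 CPM (1.41 ± 0.26, adjusted p = 0.012), with 0.023, 0.11, 0.047 and 0.096 in the left-out order. Fgfr3, a fibroblast growth factor receptor, was at 29.4 and 33.3 CPM against 21.6 and 16.5 CPM (0.73 ± 0.14, adjusted p = 0.012), with 0.016, 0.11, 0.037 and 0.091.

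Secretory genes of the caput were mostly not called, but few were bounded to within 2-fold. Of 29 tested, 0 were higher and 2 lower (Adam7 and Teddm2), with a median of -0.37, and 6 had intervals within 2-fold. Over all genes, 9.4% were called, 25.6% had an unadjusted p under 0.05 and 60.0% had such an interval. The lower calls numbered 0, 0, 1 and 0 in the left-out order, and 7 of the 29 had an unadjusted p under 0.05. Teddm2, a membrane protein of the epididymis, was at 22.1 and 23 CPM against 43.7 and 69.6 CPM (-1.33 ± 0.24, adjusted p = 0.013), with 0.092, 0.11, 0.0084 and 0.052 in the left-out order. Several strongly segment-restricted genes differed widely between the control segment 3 libraries. Lcn5, the retinoic acid-binding lipocalin, was at 545 and 388 CPM in ligated segment 1 and 1220 and 3850 CPM in control segment 3 (adjusted p = 0.19). Rnase9 was at 9.68 and 9.57 CPM against 8.97 and 310 CPM (adjusted p = 0.40), and Crisp1, a cysteine-rich secretory protein that binds sperm, at 12.7 and 10 CPM against 5.85 and 23.5 CPM (adjusted p = 0.81). In these genes the control library of batch 3097 was the high one, and the groups overlapped for Rnase9 and Crisp1 but not for Lcn5.

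Some of the secreted protein families gave calls in both directions, where edgeR's test called 9.4% of all genes. Of 12 lipocalins, 1 was higher and 1 (Lcn9) lower, with 1, 0, 1 and 0 higher and 0 lower in the left-out order. The higher one was Apod, a lipocalin that carries lipids, at 82.1 and 107 CPM against 55.6 and 40.9 CPM (0.98 ± 0.17, adjusted p = 0.013), with 0.0066, 0.064, 0.023 and 0.067 in the left-out order. Ptgds, the lipocalin-type prostaglandin D synthase, was at 1810 and 1230 CPM against 1680 and 1830 CPM (adjusted p = 0.77). Of 31 beta-defensins, small cationic peptides that defend the duct and coat sperm, 1 was higher (Defb1) and 2 lower (Defb48 and Defb42). Defb1 was at 54.8 and 60 CPM against 30.7 and 28.4 CPM (0.95 ± 0.23, adjusted p = 0.043). Defb42 was at 845 and 783 CPM against 1220 and 1190 CPM (-0.57 ± 0.13, adjusted p = 0.026). With 1 library left out the adjusted p was 0.16 to 0.20 for Defb1 and 0.11 to 0.17 for Defb42. Of 9 genes of the RNase A family, 1 was higher and 1 (Rnase10) lower. The higher one was Rnase4, at 31.1 and 36 CPM against 16.7 and 16.8 CPM (1.00 ± 0.15, adjusted p = 0.0045), a call kept without each library. Of 29 protease inhibitors of the Spink and WAP type, 1 was higher (Wfdc17) and 0 lower. For 9 cystatins, left after 4 cleavage stimulation factors (Cstf) and Cstad were set aside from the genes that share the symbol, edgeR's test called 0, 4 had an unadjusted p under 0.05, limma voom called 1 (10.7% over all genes) and DESeq2 3. Of 18 genes of the Ly6, Lypd and Pate family, 2 were higher (Ly6a and Ly6c1) and 1 lower (Lypd4), and the lower call was lost whichever of the 4 libraries was left out. Of 9 genes known from the corpus and cauda, 0 were called by edgeR's test, limma voom or DESeq2, and 0 had an unadjusted p under 0.05. Reads shared between close members of these families may have been split or dropped by the counting.

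Transcripts of sperm gave many of the largest differences, and those called were lower in ligated segment 1. Of 30 listed genes of sperm and late spermatids, 28 passed the filter on low counts and 22 were called lower and 0 higher, with a median of -6.1 against -0.016 over all genes, of which 4.79% were called lower. The lower calls numbered 20, 20, 19 and 22 in the left-out order. A gene that passed the filter through control libraries alone had to be lower in the ligated ones, so the count describes the list and supports nothing further. The summed level of the list was 70.7 and 67.4 CPM in ligated segment 1 and 455 and 274 CPM in control segment 3. Most of what remained came from Odf2, a gene of the outer dense fibres and of centrosomes, at a mean of 45.9 CPM against 78.7 CPM (-0.77, adjusted p = 0.0021). In bulk tissue, fewer cells of a type and less RNA per cell cannot be told apart.

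Akap4 (chrX:7067519-7078609), the main scaffold protein of the sperm tail sheath, had 0 counts in both ligated libraries and was at 15.6 and 10.1 CPM in control segment 3. Against a floor of 3 counts per library it was at least 167-fold lower (adjusted p = 0.0002). Odf1, a protein of the outer dense fibres of the tail, was at 0.14 and 0.168 CPM against 54.8 and 27.2 CPM (-8.02 ± 0.47, adjusted p = 0.00026). Prm1 (chr16:10796326-10805839), a protamine that packs sperm DNA, was at 0.07 and 0.028 CPM against 14.6 and 7.39 CPM (-7.65 ± 0.49, adjusted p = 0.0002). In all of these the control library of batch 3017 was the higher, and no ligated library came near either control. Prm2, the other protamine, was at 0.256 and 0 CPM against 55.8 and 29.4 CPM (-8.24 ± 0.65, adjusted p = 0.0015). Smcp, a protein of the mitochondrial sheath of sperm, was at 0.07 and 0.196 CPM against 53.5 and 22.6 CPM (-8.14 ± 0.65, adjusted p = 0.0013). Tnp2, a transition protein, had 3 counts against 872, a ratio of 312 with a 95% counting interval of 106 to 1520 (adjusted p = 0.0002).

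The same was found for Spz1, a spermatogenic transcription factor, with 1 count against 704 (ratio 756, 135 to 29900), for Gsg1, a germ cell gene, with 2 against 958 (ratio 514, 142 to 4250), and for Cabs1, a calcium-binding sperm protein, with 2 against 542 (ratio 291, 80.2 to 2410). Crisp2 (chr17:40764020-40807003), the member of the CRISP family made by germ cells, was at 0.0233 and 0.112 CPM against 17.9 and 12.6 CPM (-7.83 ± 0.46, adjusted p = 0.00016). Crisp1 and Crisp4, which duct cells make, were not called (adjusted p = 0.81 and 0.50). Of 5 genes of the family tested, the other call was Crispld1, at 6.23 and 10.8 CPM against 4.68 and 4.76 CPM (0.81 ± 0.20, adjusted p = 0.034), with 0.034, 0.25, 0.08 and 0.11 in the left-out order. Not every listed gene was called: Dkkl1 was at 2.87 and 2.38 CPM against 3.04 and 2.45 CPM (adjusted p = 0.87), and Spata3 at 17 and 15.2 CPM against 21.9 and 21.2 CPM (adjusted p = 0.35).

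Genes that were lower in ligated than in control segment 2 made up a large part of the lower calls. This class of 620 genes (3.23% of those tested), at least 4-fold lower there, was chosen on libraries outside the comparison but after results were seen. Of it, 321 genes were lower in ligated segment 1 than in control segment 3 and 5 were higher (52.6% called, against 9.4% of all genes). With a library left out the lower calls numbered 119, 134, 129 and 196 in the left-out order. The 321 were 34.9% of the 920 lower calls, 65.5% of the 490 lower by at least 2-fold, and 51.8% of the class. The class median was -3.3, or -2.4 with genes at 0 counts set to the bound. Within batches, with 0.5 CPM added to each level, it was -1.1 and -0.58. The median level of the class was 0.0898 CPM in ligated segment 1 and 0.953 CPM in control segment 3. In ligated segment 1, 153 of its genes had 0 counts, so the size of the median depends on how low levels are treated. Outside the class, 169 genes were lower by at least 2-fold. Of these, 12 of the widest differences at 5 CPM or more in control segment 3 were looked at after their values were seen. Myh13, a myosin heavy chain, was at 2.66 and 2.32 CPM against 7.98 and 14.8 CPM (-2.14 ± 0.31, adjusted p = 0.0049). Npy, neuropeptide Y, was at 1.56 and 1.4 CPM against 6.78 and 13.7 CPM (-2.68 ± 0.58, adjusted p = 0.033), and Ecm1, an extracellular matrix protein, at 24.7 and 20.5 CPM against 84.1 and 125 CPM (-2.20 ± 0.36, adjusted p = 0.018). Each of these was low in both ligated libraries. Adjusted p was 0.022, 0.064, 0.012 and 0.032 for Myh13, 0.11, 0.23, 0.12 and 0.13 for Npy, and 0.085, 0.14, 0.056 and 0.08 for Ecm1 in the left-out order.

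Some genes of multiciliated cells, which line the efferent ducts and beat to move fluid, were higher in ligated segment 1. Over all genes, 4.61% were called higher. Of 20 listed, 18 were tested and 7 were called higher and 0 lower (median 1.7), with 5, 3, 3 and 3 in the left-out order. Foxj1 (chr11:116330704-116335399), the transcription factor that drives motile cilia, was at 12.9 and 16.5 CPM in ligated segment 1 against 1.96 and 1.61 CPM in control segment 3 (3.05 ± 0.30, adjusted p = 0.00072). Ccdc153 (chr9:44240676-44247306), a coiled-coil protein of motile cilia, was at 9.44 and 18 CPM against 0.426 and 0.711 CPM (4.56 ± 0.40, adjusted p = 0.00049). Both were several times above either control library and kept their call without each library. In control segment 1 they were at means of 6.36 and 4.28 CPM, and in ligated segment 2 at 2.15 and 0.287 CPM. Against ligated segment 2 the log2 difference was 2.77 ± 0.29 for Foxj1 (adjusted p = 0.008) and 5.53 ± 0.43 for Ccdc153 (adjusted p = 0.0038). Tppp3, a tubulin-binding protein, was at 6.09 and 6.85 CPM against 1.56 and 1.42 CPM (2.12 ± 0.26, adjusted p = 0.0022), and Ak7, an adenylate kinase of cilia, at 4.48 and 6.43 CPM against 0.852 and 0.974 CPM (2.56 ± 0.31, adjusted p = 0.0021). Fndc7 was at 4.83 and 8.34 CPM against 0.114 and 0.316 CPM (4.91 ± 0.60, adjusted p = 0.0026). Ccdc153, Ak7 and Fndc7 are not on the list and were named because of their results in these data. The 11 listed genes that were not called included Mcidas (log2 fold change 0.18, adjusted p = 0.72) and Rfx3 (-0.14, adjusted p = 0.7). The summed level of the list was 243 and 229 CPM against 188 and 156 CPM, most of it from Ccno, at 155 and 118 CPM against 140 and 113 CPM (adjusted p = 0.73). None of the 18 was at 0 counts in both libraries of either group. The part of ciliated cells in the other results was not tested.

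Many markers of macrophages and dendritic cells were higher in ligated segment 1 than in control segment 3, where 4.61% of all genes were called higher. All 22 listed were tested and 12 were higher and 0 lower (median 1.0), with 11, 7, 9 and 9 in the left-out order. Lyz2 (chr10:117277331-117282321), lysozyme of phagocytes, was at 54.4 and 66.3 CPM against 15.9 and 15.8 CPM (1.92 ± 0.13, adjusted p = 0.0002). C1qb, a chain of complement C1q that macrophages make, was at 26.8 and 35.8 CPM against 9.68 and 13.2 CPM (1.45 ± 0.11, adjusted p = 0.00028). Ctss, cathepsin S of antigen-presenting cells, was at 51.7 and 63.3 CPM against 16.9 and 20.8 CPM (1.61 ± 0.17, adjusted p = 0.0016). The groups did not overlap for any of these, and each kept its call without each library, as did C1qc, Tyrobp, Clec7a and Ms4a7. Tyrobp, a signalling adaptor of myeloid cells, was at 6.9 and 6.94 CPM against 2.44 and 1.79 CPM (1.71 ± 0.20, adjusted p = 0.0016), and Clec7a, a receptor for fungal glucans, at 6.51 and 10.5 CPM against 1.45 and 1.71 CPM (2.41 ± 0.24, adjusted p = 0.00074). Ctss came from the lysosome list. Clec7a and Ms4a7 are on none of the lists and were named because of their results in these data. Not all markers were higher: Cd74, the invariant chain, was at 22.1 and 23.6 CPM against 25.7 and 23.6 CPM (adjusted p = 0.79), and Cd68 at 58.2 and 49.4 CPM against 52.6 and 56.6 CPM (adjusted p = 0.99). Cd68 was at 6.15 CPM in control segment 1. The summed level of the list was 367 and 411 CPM against 224 and 245 CPM, with no member at 0.

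In control segment 1 Lyz2, C1qb and Ctss stood at means of 36.7, 24.6 and 45.1 CPM, between ligated segment 1 and control segment 3. Against control segment 3, control segment 1 was higher at 13 of the 22 macrophage and dendritic cell markers and lower at 2 (median 1.0). Ligated segment 1 was above control segment 1 at 6 of them and below it at 0 (median 0.38). Markers of other white blood cells had low counts and gave no calls. Over all genes, 9.4% were called and 25.6% had an unadjusted p under 0.05. Of 8 genes of T and NK cells tested, edgeR's test called 0 (5 at an unadjusted p under 0.05, 0 by limma voom and DESeq2), with a median of 1.4 and a summed level of 8.21 and 10.2 CPM against 5.31 and 4.84 CPM over the 14 listed. Of 5 B cell genes it called 0 (1 at an unadjusted p, 0 by limma voom and DESeq2, median 0.62), and of 8 neutrophil genes only Csf3r was tested and not called (adjusted p = 0.059). Of 7 genes of red cells and platelets, 1, Hbb-bs, was higher, and with any 1 of the 4 libraries left out 0 were. Of 2 adipocyte genes tested 1, Pck1, was higher, at a mean of 0.809 CPM against 0.0689 CPM (adjusted p = 0.018), and with a library left out 0 were. Of 7 genes of the somatic cells of the testis 1, Inhba, a subunit of activin, was higher, at 20.4 and 19.3 CPM against 14.2 and 10.7 CPM (0.68 ± 0.14, adjusted p = 0.018), with 0.08, 0.11, 0.039 and 0.11 in the left-out order.

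Some genes induced by interferon were also higher, where 4.61% of all genes were called higher. All 30 listed were tested, 15 were higher and 0 lower, and the median was 0.92. The count fell to 7, 3, 3 and 6 in the left-out order and 11 of the 30 had intervals within 2-fold. Isg15 (chr4:156199424-156200818), a ubiquitin-like protein, was at 10.6 and 7.58 CPM against 2.16 and 2.13 CPM (2.06 ± 0.22, adjusted p = 0.001). It kept its call without each library, and control segment 3 was the low group, since control segments 1 and 2 and ligated segment 3 stood at means of 6.22, 6.73 and 5.37 CPM. Ifit1, which binds viral RNA, was at 5.36 and 5.04 CPM against 1.48 and 1.13 CPM (2.01 ± 0.37, adjusted p = 0.012), with 0.044, 0.086, 0.098 and 0.083 in the left-out order. Ifit3, its partner, was at 5.97 and 6.91 CPM against 1.73 and 1.89 CPM (1.82 ± 0.29, adjusted p = 0.0061), with 0.028, 0.057, 0.066 and 0.045. Stat2, a transcription factor of the pathway, was at 37.8 and 34.3 CPM against 39.5 and 32.5 CPM (adjusted p = 0.98), and Irf9, which pairs with it, at 125 and 116 CPM against 70.5 and 91.3 CPM (0.58 ± 0.16, adjusted p = 0.053).

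The promoters of the 3 leading genes of this list are shown because these genes were higher together and the element is the one that STAT and IRF factors are known to bind. Each is 300 bases of RefSeq sequence (GRCm38.p6), 250 before and 50 after the gene's start, read 5′ to 3′ on the gene's strand, and capitals mark matches to the interferon-stimulated response element, spelled GAAA, any 2 bases, GAAA, on either strand, overlaps included. They lie at chr19:34640639-34640938 (plus strand) for Ifit1, chr19:34583279-34583578 (plus strand) for Ifit3 and chr4:156200769-156201068 (minus strand) for Isg15.
Ifit1: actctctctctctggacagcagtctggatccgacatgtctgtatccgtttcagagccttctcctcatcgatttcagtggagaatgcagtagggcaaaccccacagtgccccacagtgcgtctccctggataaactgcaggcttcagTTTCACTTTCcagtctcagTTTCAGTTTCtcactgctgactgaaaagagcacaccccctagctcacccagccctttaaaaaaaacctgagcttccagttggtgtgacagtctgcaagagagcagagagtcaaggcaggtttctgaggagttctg
Ifit3: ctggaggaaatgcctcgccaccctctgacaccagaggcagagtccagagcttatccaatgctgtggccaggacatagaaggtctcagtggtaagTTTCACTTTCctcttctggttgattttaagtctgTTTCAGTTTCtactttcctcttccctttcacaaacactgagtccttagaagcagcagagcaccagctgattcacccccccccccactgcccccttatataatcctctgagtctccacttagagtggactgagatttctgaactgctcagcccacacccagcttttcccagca
Isg15: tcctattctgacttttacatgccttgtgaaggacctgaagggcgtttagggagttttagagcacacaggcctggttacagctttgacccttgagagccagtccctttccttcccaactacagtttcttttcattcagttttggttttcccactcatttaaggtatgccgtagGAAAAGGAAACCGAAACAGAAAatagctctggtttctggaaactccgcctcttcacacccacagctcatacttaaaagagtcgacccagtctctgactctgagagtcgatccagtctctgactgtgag
The matches begin 104 and 85 bases before the start of Ifit1, 156 and 122 before that of Ifit3, and 78, 72 and 66 before that of Isg15, where the 3 overlap. The motif was found in 1131 of 32851 promoter windows of this length (3.44%). Of the interferon genes called higher, 12 of 15 had a window and 7 of those 12 held a match. Of those not called, 11 of 15 had a window and 6 held a match. A match is a description of the sequence, not of binding.

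Of 14 complement genes tested, 7 were higher and 0 lower (median 0.73), with 5, 3, 5 and 3 in the left-out order. Over all genes, 4.61% were called higher. C1qa, C1qb and C1qc are also on the macrophage list. C7, a part of the membrane attack complex, was at 19.8 and 36.7 CPM against 10.9 and 10.2 CPM (1.39 ± 0.23, adjusted p = 0.0094), with 0.005, 0.057, 0.043 and 0.077 in the left-out order.

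Some genes of the cells around and beneath the epithelium were higher in ligated segment 1, where 4.61% of all genes were called higher. Of 12 basal cell genes tested, 6 were higher and 0 lower (median 0.58), with 8, 2, 2 and 2 higher and 0, 1, 0 and 0 lower in the left-out order. Krt14 (chr11:100203162-100207548), a keratin of basal cells, was at 109 and 153 CPM against 54.7 and 74.3 CPM (1.02 ± 0.10, adjusted p = 0.00094). Of 20 fibroblast and matrix genes, 5 were higher and 0 lower (median 0.60), with 5, 1, 2 and 2. Dcn (chr10:97479609-97518143), the matrix proteoglycan decorin, was at 103 and 161 CPM against 55.6 and 61.8 CPM (1.14 ± 0.12, adjusted p = 0.0011). Neither gene overlapped between the groups, and for both the ligated library of batch 3097 was the highest. The fibroblast list summed to 383 and 555 CPM against 310 and 313 CPM, but Postn, a matrix protein, was at 37.6 and 43.4 CPM against 44.5 and 48.7 CPM (adjusted p = 0.33).

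Of 15 endothelial genes, 5 were higher and 0 lower (median 0.81), and with a library left out 1, 0, 0 and 0 were. The list summed to 79.3 and 93.1 CPM against 56.3 and 49.4 CPM, and Pecam1, an adhesion molecule of endothelium, was at 8.44 and 12.6 CPM against 5.14 and 6.11 CPM (0.89 ± 0.21, adjusted p = 0.031), with 0.038, 0.22, 0.18 and 0.11 in the left-out order. Ly6a and Ly6c1, surface proteins found on endothelium and other cells, were called at 59.6 and 78 CPM against 28.4 and 34.1 CPM (1.13 ± 0.10, adjusted p = 0.00051) and 12.6 and 19.1 CPM against 4.06 and 5.45 CPM (1.72 ± 0.16, adjusted p = 0.00056). Both calls held without each library. Of 14 smooth muscle genes, 4 were higher and 0 lower (median 0.17), with 1 in each case in the left-out order. Cald1, the actin-binding protein caldesmon, was that 1, at 35.8 and 37.2 CPM against 21.9 and 24.6 CPM (0.65 ± 0.08, adjusted p = 0.0026), while Myh11, smooth muscle myosin, was at 120 and 175 CPM against 151 and 164 CPM (adjusted p = 0.71). The muscle list summed to 729 and 867 CPM against 658 and 750 CPM. Over all genes, 4.61% were called higher in ligated segment 1 than in control segment 3. Control segment 1 was compared with control segment 3 on the same lists. There 8 basal genes were higher and 1 lower (median 1.2), and 13 endothelial genes were higher and 0 lower (median 1.8). For fibroblast genes 3 were higher and 5 lower (median -0.28), and for muscle genes 2 and 6 (median -0.36). Ligated segment 1 was below control segment 1 at 6 basal and 9 endothelial genes and above it at 2 and 1. No marker of the basal, fibroblast, endothelial or muscle lists was at 0 in either group compared here. The part of these cells in the other results was not tested.

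Clear and narrow cells, which acidify the lumen, gave 1 call among 15 genes, where 9.4% of all genes were called. Car2 (chr3:14886273-14900770), carbonic anhydrase 2, was at 38 and 43.1 CPM in ligated segment 1 against 12.7 and 8.89 CPM in control segment 3 (1.92 ± 0.17, adjusted p = 0.00056), and at 56.3 CPM in control segment 1. Its call held without each library, and its ligated level lay between those of control segments 3 and 1. Rhcg, an ammonia channel, was at 739 and 654 CPM against 705 and 738 CPM (-0.04, adjusted p = 0.94, interval -0.68 to 0.57), while control segment 1 was at 92.4 CPM. Among 22 genes of fluid and ion transport, 4 were higher and 0 lower (median 0.22), with 1, 2, 0 and 1 in the left-out order. Aqp1, a water channel, was at 21.1 and 32.1 CPM against 6.5 and 8.21 CPM (1.84 ± 0.25, adjusted p = 0.0052), with 0.02, 0.049, 0.062 and 0.044 in the left-out order. Scnn1a, the alpha subunit of the epithelial sodium channel, was at 205 and 192 CPM against 130 and 125 CPM (0.64 ± 0.11, adjusted p = 0.0085), with 0.066, 0.033, 0.05 and 0.066.

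Retinoid genes moved in both directions, where 9.4% of all genes were called. Of 15 tested, 4 were higher and 2 lower (median 0.65), with 2, 0, 0 and 1 higher and 1 lower each time in the left-out order. Aldh1a1 (chr19:20492715-20643465), which makes retinoic acid, was at 623 and 710 CPM against 1510 and 1400 CPM (-1.13 ± 0.12, adjusted p = 0.00094), and it was the call that held without each library. Stra6, the receptor that takes up retinol, was at 48.6 and 69.1 CPM against 17.2 and 28.2 CPM (1.40 ± 0.35, adjusted p = 0.057), against means of 2.63 CPM in control segment 1 and 3.47 CPM in control segment 2. It was thus high in both groups compared here.

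Genes of androgen metabolism and response gave calls in both directions, where 9.4% of all genes were called. Srd5a1, a 5-alpha-reductase that is high in normal segment 1, was at 12.1 and 9.85 CPM against 6.98 and 3.66 CPM (adjusted p = 0.16), and Srd5a2, the other isozyme, at 125 and 169 CPM against 150 and 152 CPM (adjusted p = 0.93). Of 16 genes listed as androgen response, 3 were higher and 1 lower (median 0.031), with 2, 0, 2 and 2 higher and 0, 0, 0 and 1 lower in the left-out order. Tmprss2, a transmembrane protease, was at 15.6 and 16.8 CPM against 9 and 7.21 CPM (1.00 ± 0.15, adjusted p = 0.0048), with 0.026, 0.051, 0.015 and 0.038 in the left-out order.

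Homeobox genes set position along the body axis. Over all genes, 9.4% were called. Of 39 listed, 30 were tested, 5 were higher and 0 lower (median 0.24), with 3, 1, 2 and 2 in the left-out order, and 15 had intervals within 2-fold. Hoxa7 (chr6:52214491-52221854) was at 11.4 and 15.4 CPM against 4.34 and 3.74 CPM (1.71 ± 0.25, adjusted p = 0.0044) and kept its call without each library. Hoxb6 was at 199 and 194 CPM against 182 and 208 CPM and Hoxb8 at 246 and 184 CPM against 223 and 211 CPM (adjusted p = 0.94 and 0.92). Wider differences that were not called included Hoxa9, at 3.82 and 11.2 CPM against 1.25 and 0.526 CPM (2.90 ± 0.85, adjusted p = 0.087), and Hoxa10, at 3.22 and 9.34 CPM against 1.62 and 0.132 CPM (2.56 ± 1.39, adjusted p = 0.32), both picked out after their values were seen. In both genes the ligated libraries were above the controls and the one of batch 3097 was the highest. Of 26 other transcription factors of the epididymis, 1 was higher, Sall1, and 1 lower, Tbx3, and 18 had intervals within 2-fold. Sall1 was called in 0, 0, 0 and 1 and Tbx3 in 1, 0, 0 and 0 of the left-out fits.

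The calls among redox and lipid genes were mostly of small folds, where 9.4% of all genes were called. Of 36 genes of glutathione metabolism, 3 were higher, the transferases Gstm1, Gstm2 and Gstm6, and 1 lower, the transferase Gstt4, and 24 lay within 2-fold. Gstt4 had 1 and 0 counts in the ligated libraries against 35 and 26 in the controls (adjusted p = 0.012), with 0.073, 0.095, 0.081 and 0.05 in the left-out order. The higher calls numbered 0, 0, 0 and 1 and the lower calls 0, 0, 0 and 1 in the left-out order. Gstm2 was at 1180 and 1220 CPM against 770 and 910 CPM (0.52 ± 0.10, adjusted p = 0.013), with 0.088, 0.061, 0.11 and 0.04 in the left-out order. Of 24 cholesterol synthesis genes, 4 were higher and 20 lay within 2-fold (median 0.28), with 2, 1, 1 and 1 in the left-out order. Mvd, an enzyme of the mevalonate pathway, was at 53 and 65.6 CPM against 31.9 and 41.9 CPM (0.69 ± 0.09, adjusted p = 0.0024), and the adjusted p was 0.079 without the batch term. The widest of these calls was Dhcr7, a late enzyme of cholesterol synthesis, at 3.64 and 4.53 CPM against 1.02 and 0.632 CPM (2.32 ± 0.40, adjusted p = 0.011), with 0.029, 0.083, 0.065 and 0.086 in the left-out order. Its mean in control segment 1 was 25.4 CPM. Of 26 lysosome genes 4 were higher and 1 lower, with 22 within 2-fold, and with a library left out 2, 1, 2 and 2 were higher and 1, 0, 0 and 0 lower.

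Most genes of protein synthesis and energy metabolism lay within 2-fold. Over all genes, 60.0% did, 9.4% were called and 25.6% had an unadjusted p under 0.05. Of 75 cytosolic ribosomal protein genes, edgeR's test, limma voom and DESeq2 called 0, 0 had an unadjusted p under 0.05, and 74 lay within 2-fold (median 0.058). Of 85 genes of oxidative phosphorylation the 3 tools called 0, 3 had an unadjusted p under 0.05 and 81 lay within 2-fold, though 4 were called when libraries were scaled by their totals. Of 24 genes of the unfolded protein response 1 was called, Sel1l, in none of the left-out fits, and 22 lay within 2-fold. Hspa5, the chaperone BiP, was at 2580 and 2590 CPM against 2460 and 2960 CPM. Of 24 p53 and apoptosis genes 2 were higher, with 1, 0, 0 and 1 in the left-out order, and 20 lay within 2-fold. Of 22 gene identifiers of glycolysis and hypoxia, with Aldoa under more than 1, Vegfa alone was called, and 16 lay within 2-fold. Of 25 proliferation genes 2 were higher (median 0.50), with 5, 0, 0 and 0 in the left-out order, and 8 lay within 2-fold. Of 22 keratins and junction genes 14 lay within 2-fold and 3 were higher and 1 lower, with 1, 0, 0 and 0 higher and 0, 0, 1 and 0 lower.

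**Figure D5:**
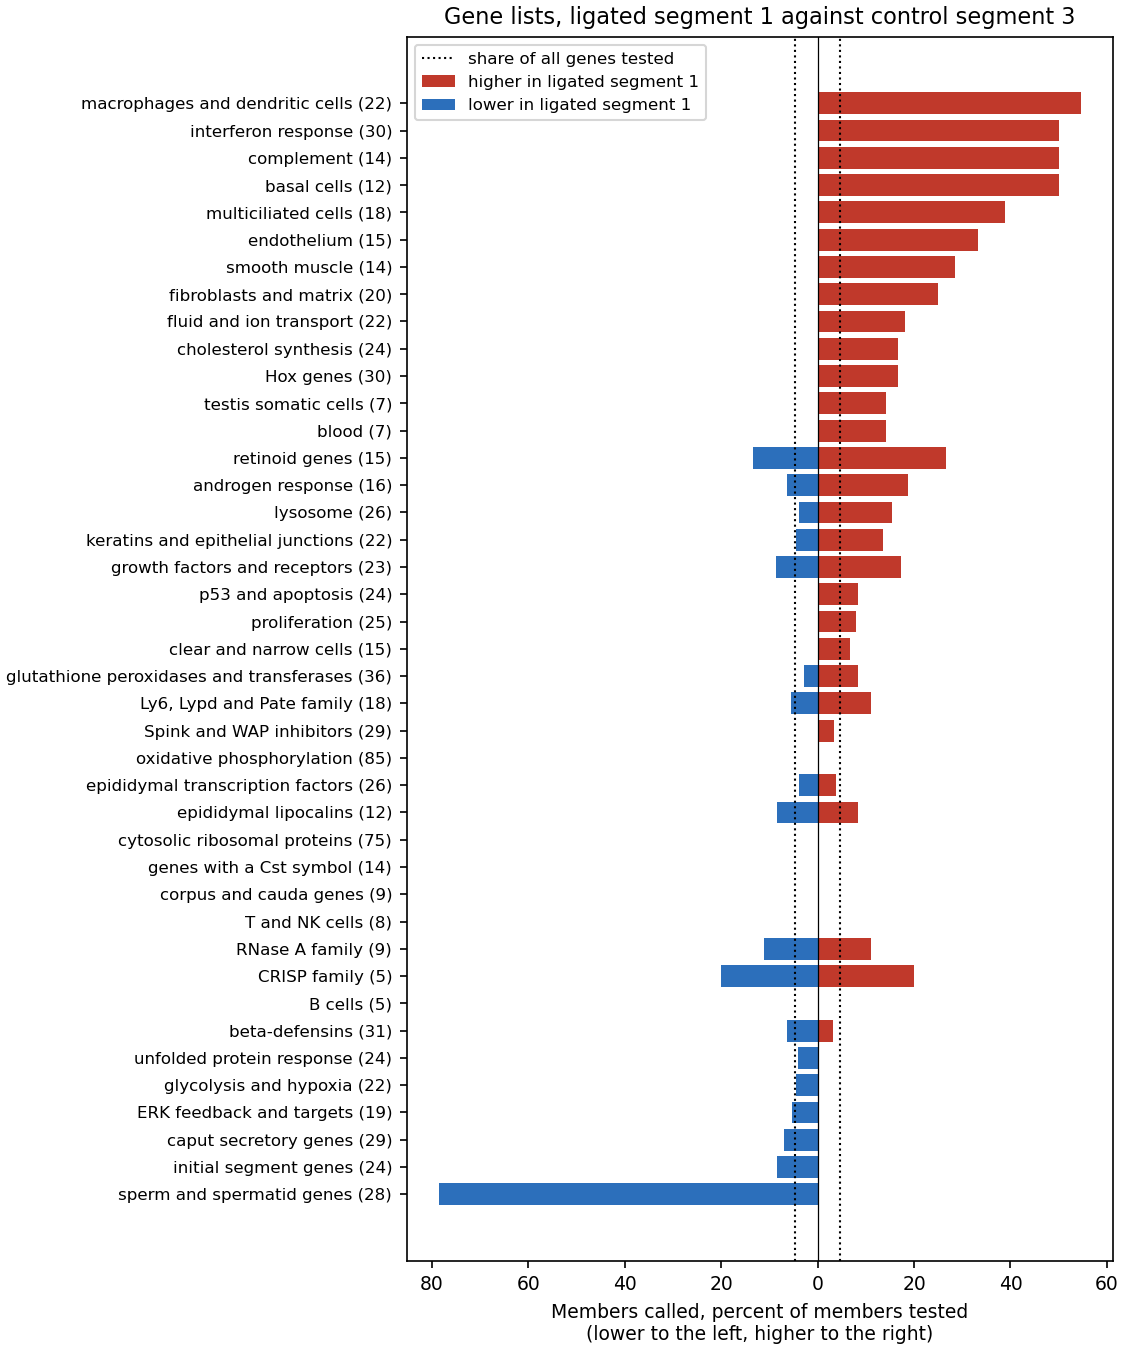
Share of tested members (x axis, percent) called higher (red, right) or lower (blue, left) in ligated segment 1 than in control segment 3, for each list with at least 5 tested members (y axis, number tested in brackets); dotted lines mark the shares over all genes, 4.61% and 4.79%. Macrophage, complement, interferon, basal and ciliary lists lie to the right and the sperm list far to the left. The T and NK cell, B cell, ribosomal and oxidative phosphorylation lists lie at 0.

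A few genes of ligated segment 1 lay outside every control segment. By the largest p of its comparisons with control segments 1, 2 and 3, adjusted over all genes, 18 genes lay above all of them (0.0937%) and 21 below (0.109%), and 25 of the 39 by at least 2-fold, 10 above and 15 below. With a library left out there were 4, 3, 7 and 15 in the left-out order, and without the batch term 7. Hsd17b14 (chr7:45554893-45567752), a hydroxysteroid dehydrogenase, was at 7.95 and 8.59 CPM in ligated segment 1 and 1.39 and 1.42 CPM in control segment 3 (2.55 ± 0.28, adjusted p = 0.0011), and at means of 1.37 and 0.872 CPM in control segments 1 and 2. Naip1, an innate immune sensor, was at 4.17 and 6.63 CPM against 1.22 and 1.47 CPM (1.98 ± 0.25, adjusted p = 0.0024), and at 1.1 and 0.133 CPM in control segments 1 and 2. Both were above every control mean, and by the same test Rasl11a, Tmprss7, Sh3bgr, Krt14, Dcn, Tgfa and Tmprss2 were also above.

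Below all control segments lay Osbp2 (chr11:3703731-3863903), an oxysterol-binding protein, at 0.7 and 0.727 CPM against 18.6 and 8.5 CPM (-4.19 ± 0.34, adjusted p = 0.00049). It was at means of 20.7 and 17.6 CPM in control segments 1 and 2 and at 0.457 and 0.359 CPM in ligated segments 2 and 3, so it was low in all ligated segments. The sperm genes Akap4, Cabs1, Crisp2 and Prm1 lay there too, as did Vegfa and Aldh1a1. Aldh1a1 was at means of 1840 and 2080 CPM in control segments 1 and 2 and 785 and 864 CPM in ligated segments 2 and 3. Vegfa was at 179 and 97.8 CPM in those control segments and 61.7 and 65.2 CPM in those ligated segments, and ligated segment 1 was also below ligated segment 2 (-1.69 ± 0.20, adjusted p = 0.015) and ligated segment 3 (-1.77 ± 0.20, adjusted p = 0.0073).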

How the data were processed

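The authors deposited 1 table of raw counts per gene for each sequencing batch, 3017 and 3097, with 55536 gene identifiers, all of which match GENCODE mouse release 21. Per the submitters' processing notes, reads went through Trim Galore 0.6.0, cutadapt, FastQC and STAR 2.7.0e against GRCm38 (mm10). How reads were counted, with which gene models and whether by strand, was not given in the sources used. Column headers name the group, so libraries are named by group and batch. edgeR 4.0.16 (R 4.3.3) was fitted across all 12 libraries and all genes that passed filterByExpr with a minimum count of 10, with TMM factors, group and batch as terms, and robust quasi-likelihood tests (2-sided, 5 residual degrees of freedom), adjusted over all 19213 genes. Intervals came from limma 3.58.1 (voom), and DESeq2 1.42.0 was an alternative. The scripts were tested on simulated counts. Batch pairs the libraries by the study's design: deviations from group means correlated at 0.28 between ligated segment 1 and control segment 3, and at 0.083 to 0.55 over all pairs of groups.

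Genes were named by rule: the 10 largest and 10 smallest fold changes among called genes whose higher group reached 5 CPM, the leading called and uncalled members of 43 lists, the genes with the most counts, those farthest outside all control segments, the leading genes of the segment 1 classes, and 22 fixed genes. 1 of the fixed genes is not reported here. A few others were chosen after their values were seen. The members and lists were chosen with earlier results of these data known, so nothing here is independent of them. Libraries held 30.5 to 42.3 M counts, and a floor of 3 counts is at most 0.0984 CPM.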

Additional observations from a re-analysis of the deposited data

How the results depend on the processing

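With 1 of the 4 libraries left out, calls ranged from 335 to 716 (1806 with all), higher calls from 153 to 424 (886), lower calls from 182 to 422 (920), calls of at least 2-fold from 260 to 490 (990) and genes outside all control segments from 3 to 15 (39). The median of the class higher in control segment 1 then ranged from 0.055 to 0.53 (0.33) and that of the class lower there from -0.99 to -0.55 (-0.72). Of 110 named genes that were called, 43 kept their call without each library and 41 under every alternative. With library totals alone 1606 genes were higher, 111 lay outside all control segments and the class medians were 0.45 and -0.6. The median over all genes was then 0.11 in place of -0.016. Without a filter on low counts 108 genes lay outside all control segments and the lower class was at -0.7. With a minimum count of 50, which tests fewer genes, 624 genes were called at 2-fold, 19 lay outside and the lower class was at -0.56. With only the 4 libraries compared the class medians were 0.56 and -0.66, and the test against all control segments was not run. DESeq2 put 224 genes outside all control segments, and limma voom gave class medians of 0.25 and -0.74. The cause of these shifts was not tested. The count of genes within 2-fold stayed between 10161 and 11786, neither class median changed sign, and 104 of 516 list medians moved by more than their spread. The median of 13 of the 43 lists took the other sign with some library left out, as for the CRISP family (-1.2 to 0.63), beta-defensins (-0.8 to 0.19), the RNase A family (-0.55 to 0.34) and lipocalins (-0.43 to 0.12), and that of 5 lists did under another alternative.

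Without the replicate block, that is with no batch term, 1024 genes were called, 536 higher and 488 lower, 7 lay outside all control segments and the lower class was at -0.73. Of the 110 named calls 85 remained.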
